A study of Mus musculus with 76 samples.

Results

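The follistatin and activin genes described here are 6 of the 38129 entries of the raw count table: the activin antagonists Fst (follistatin) and Fstl3 (follistatin-like 3), and the inhibin beta subunit genes Inhba, Inhbb, Inhbc and Inhbe. They were taken by gene name, and Fst was chosen by its measured difference between knockout and wild-type livers of mice fed ad libitum, where it stood among the largest; so the values of all 6 genes in that comparison are given as a description, without a test.

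Activins are dimers of inhibin beta subunits and belong to the TGF-beta family of secreted ligands. They bind the type II receptors Acvr2a and Acvr2b, which recruit a type I receptor such as Acvr1b (ALK4) and lead to phosphorylation of Smad2 and Smad3. Follistatin and Fstl3 bind activins outside the cell and keep them from their receptors. Inhbc and Inhbe are expressed mainly in hepatocytes, and the liver is a main source of follistatin in blood, where its output is known to follow the balance of glucagon and insulin.

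The livers, hearts and suprachiasmatic nuclei (SCN, the central circadian clock of the brain) came from Bmal1-VIPKO mice (KO) or wild-type mice (WT), under time-restricted feeding (TRF) or ad libitum feeding (AL), at circadian time 12 (CT12) or 0 (CT0). The KO label names Arntl (Bmal1), a core clock transcription factor, together with VIP, vasoactive intestinal peptide, which a subset of SCN neurons makes; neither liver nor heart is named as a target. The labels used here give neither the Cre driver, strain, sex and age nor the hours of feeding. Each of the 8 groups per tissue held 3 libraries, or 4 in the TRF KO groups of liver and heart, and the labels do not say that libraries came from separate animals, so p-values measure the spread between these libraries.

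Total counts ran from 13502014 to 19018983 in the 76 libraries. In the SCN, Arntl averaged 23.3 ± 3.08 CPM (the standard scaling of counts to library size, here with TMM factors) in KO and 22.3 ± 2.41 CPM in WT (SD, n = 12 each), while Vip averaged 0.494 ± 0.426 CPM in KO and 7.79 ± 5.67 CPM in WT; a deletion in few cells of the sample cannot be read from the whole-tissue level of Arntl. The hepatocyte genes Alb, Apoa1, Ttr, Cyp2e1 and Tat together held at least 86835 CPM in every liver, and 5 cardiomyocyte genes at least 36187 CPM in every heart. Traces of the other tissue were present: 6 of 26 livers held 72.9 to 104.7 CPM of the cardiomyocyte genes, against at most 2.16 CPM in the other 20, and hearts held 0.291 to 239 CPM of the hepatocyte genes. The 3 AL WT hearts at CT12 held 481 to 1443 CPM of 5 brain genes, against 8.10 to 24.1 CPM in the other 23 hearts. The heart comparisons under AL therefore use CT0 alone. At CT0 the atrial genes Myl7, Nppa, Sln and Myl4 summed to 1243 to 3198 CPM in AL KO hearts and 15.3 to 22.0 CPM in AL WT hearts. All 4 were called higher in AL KO hearts at CT0. The part of atrial tissue in the AL heart comparison was not tested. Each AL group also held 1 library with a 3-digit title number, which in liver and heart lay between the other libraries of its group in 38.5% to 53.2% of genes. No library pair of a group agreed within sampling noise: the closest, AL KO heart 56 and the 3-digit library of that group at CT0, had a chi-square of 1.75 per gene where noise gives about 1, and the median pair 13.3. In every AL group of liver and heart the closest pair held the 3-digit library, at 3.31 to 5.49 in liver and 1.75 to 2.96 in heart. The pair without it had 12.7 to 42.5 in liver and 6.65 to 269 in heart. The SCN differed. There the pair without the 3-digit library was the closest in AL WT at CT0 (8.87) and CT12 (5.92) and in AL KO at CT12 (6.44). In AL KO SCN at CT0 the closest pair held it (10.2). Whether the 3-digit libraries are separate animals cannot be told from the labels. If they are not independent, p-values that use AL groups are too small.

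The order of the members in liver differed from that in heart and SCN, where Inhbb and Fstl3 had the highest levels. On the scale of mean CPM per kilobase of exon, the liver order was Inhbc at 29.6 ± 10.5, Inhbe at 12.6 ± 4.60, Inhba at 2.33 ± 1.48, Fst at 1.62 ± 1.37, Inhbb at 0.364 ± 0.172 and Fstl3 at 0.0619 ± 0.0363 (SD, n = 26 livers). Inhba and Fst, neighbours in that order, lay within each other's spread. In the heart, Inhbb led at 1.08 ± 0.307 and Fstl3 followed at 0.781 ± 0.216 CPM per kilobase, within each other's spread, ahead of Fst at 0.142 ± 0.0615 and Inhba at 0.105 ± 0.0440 (n = 26 hearts). In the SCN, Inhbb was at 2.17 ± 0.397, Fstl3 at 0.764 ± 0.194, Inhba at 0.237 ± 0.126 and Fst at 0.201 ± 0.0592 CPM per kilobase (n = 24). These levels pool all groups of a tissue.

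Low counts set which members could be tested. In the liver 5 of 6 members passed the filter on low counts and Fstl3 did not, with 63 counts over 26 livers. In the heart Fst, Fstl3, Inhba and Inhbb passed; Inhbc had 9 counts and Inhbe 15 counts over all 26 hearts. A count of 0 in a heart allows up to 0.155 to 0.207 CPM (3 counts, counting error only). The 7 hearts with an Inhbc count held 45.6 to 239 CPM of the hepatocyte genes and the 6 hearts with an Inhbe count 186 to 239 CPM, against 0.291 to 225 CPM in the 19 hearts without Inhbc and 0.291 to 143 CPM in the 20 hearts without Inhbe. The few heart counts of these hepatocyte ligands thus lay in hearts with liver RNA markers, and no level in heart cells is read from them. In bulk tissue, fewer cells of a type and less RNA per cell cannot be told apart.

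Follistatin had the widest range, as highest over lowest level, of the 5 members tested in liver. Fst (ENSMUSG00000021765, GRCm38 chr13:114452290-114458951, minus strand) had 17.0, 20.9 and 17.9 CPM in AL KO livers at CT0, against 0.787, 2.89 and 1.42 CPM in AL WT livers at CT0. At CT12 it had 9.47, 15.9 and 12.2 CPM in AL KO livers, against 1.38, 1.79 and 2.06 CPM in AL WT livers. The 6 AL KO livers all lay above the 6 AL WT livers, as the choice of the gene implies; 4.76% of genes separated these groups in that direction. The log2 difference averaged over both times was 3.16 ± 0.39 (SE), the 34th from the top of 14397 genes tested, and 10.3% of genes were called higher in that comparison. The 5 hepatocyte genes together also summed higher in AL KO livers, at 104853 to 118799 CPM against 86835 to 95971 CPM in AL WT livers. Of these 5 genes, 1 was called higher there. Under TRF they summed to 111683 to 128812 CPM in KO (median 124846) and 89746 to 113923 CPM in WT (median 101831). Of the 6 AL KO livers, 4 held the cardiomyocyte trace. Fst averaged 0.651 ± 0.282 CPM in hearts (n = 26). The part of the hepatocyte genes and of the cardiomyocyte trace in the Fst difference was not tested.

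**Figure D1:**
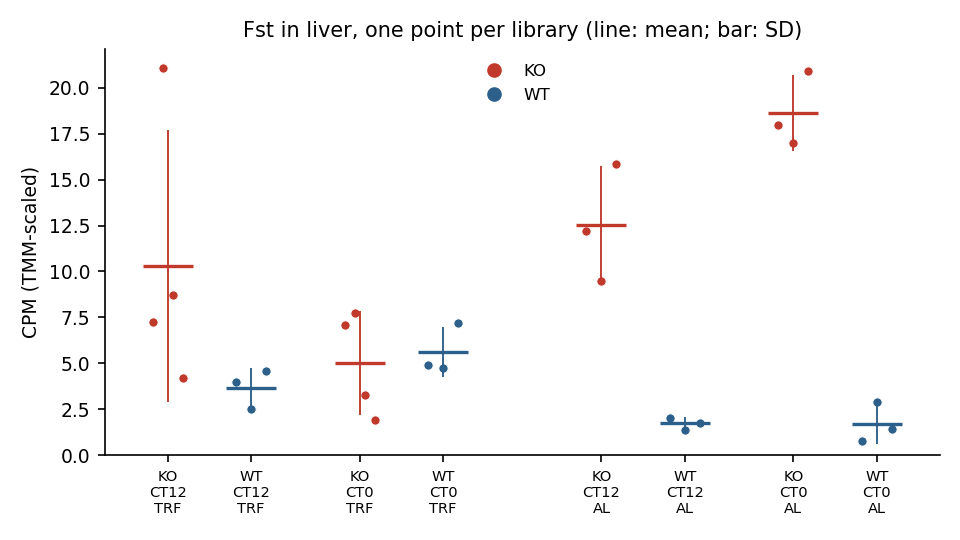
Fst in every liver library, in TMM-scaled CPM, with KO in red left of WT in blue at each time; TRF groups stand on the left and AL groups on the right, lines are group means and bars SD. All AL KO livers (9.47 to 20.9 CPM) lie above all AL WT livers (0.787 to 2.89 CPM), while TRF KO and TRF WT livers overlap.

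Under TRF the genotypes overlapped. Fst had 7.10, 7.76, 1.94 and 3.28 CPM in TRF KO livers at CT0, against 4.89, 4.77 and 7.19 CPM in TRF WT livers at CT0. At CT12 it had 7.25, 21.1, 8.70 and 4.23 CPM in TRF KO livers, against 3.96, 2.50 and 4.58 CPM in TRF WT livers. Library 29 of TRF KO at CT12 reached the AL KO level, and the other TRF KO livers lay within or near the TRF WT range. The KO minus WT log2 difference under TRF was 0.67 ± 0.33 (95% interval -0.03 to 1.37, adjusted p = 0.208, edgeR quasi-likelihood test), and 0.36 without library 29 (adjusted p = 0.462). Whether the genotype difference itself differed between AL and TRF was not tested, because the AL values chose the gene.

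Time of day left Fst uncalled in every liver group. The CT12 minus CT0 log2 difference was 1.03 ± 0.42 in TRF KO livers (adjusted p = 0.0906) and -0.61 ± 0.51 in TRF WT livers (adjusted p = 0.415). In TRF KO it passed only without library 64 of CT12 (log2 difference 1.30, adjusted p = 0.0322). The genotype by time term under TRF, added after the data were seen, was 1.64 ± 0.67 (95% interval 0.25 to 3.02, adjusted p = 0.435), where 0.0556% of genes were called. In AL livers the time difference was -0.57 ± 0.46 in KO (adjusted p = 0.992) and 0.05 ± 0.63 in WT (adjusted p = 0.979). Over all 26 livers, the genes most like Fst by Pearson's r of log2 CPM were Tsc1 (r = 0.853), an mTORC1 inhibitor, Btg1 (0.845), an antiproliferative gene, Ocln (0.836), the tight junction protein occludin, Slc19a2 (0.832), a thiamine transporter, and Cecr2 (0.829), a chromatin remodelling protein. These correlations pool groups that differ in level and are a description.

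Fstl3 (ENSMUSG00000020325, GRCm38 chr10:79777272-79782630, plus strand) was near its floor in liver, at 0 to 0.338 CPM. In hearts it ran from 0.880 to 3.07 CPM with a mean of 1.91 ± 0.529 CPM. It passed no test there: the KO minus WT log2 difference was -0.28 ± 0.21 under TRF (95% interval -0.71 to 0.14, adjusted p = 0.505) and 0.38 ± 0.30 in AL hearts at CT0 (95% interval -0.23 to 0.99, adjusted p = 0.717). Its lowest heart, library 48 of AL WT at CT12, had 34.2% of its counts from mitochondrial genes, against at most 13.6% in any other heart. In its RefSeq promoter window (the 250 bases before the start, GRCm38.p6) stood 1 copy of the nuclear receptor half-site AGGTCA, read as TGACCT 200 bases before the start.

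Inhba encodes the subunit of activin A, the best studied activin. Inhba (ENSMUSG00000041324, GRCm38 chr13:16011851-16031621, plus strand) was low in AL KO livers: 9.17, 11.7 and 10.4 CPM at CT0, against 27.5, 32.9 and 31.3 CPM in AL WT livers, and 9.89, 14.3 and 10.8 CPM at CT12, against 21.2, 18.7 and 18.6 CPM. The 6 AL KO livers lay below the 6 AL WT livers, with a log2 difference of -1.15 ± 0.27; 10.3% of genes were called lower there and 4.59% lay without overlap in that direction. Under TRF it had 9.82, 18.1, 19.3 and 20.5 CPM in KO livers at CT12 and 4.00, 5.23, 6.17 and 3.42 CPM at CT0. TRF WT livers had 6.82, 34.4 and 25.5 CPM at CT12 and 5.23, 8.75 and 3.95 CPM at CT0. All TRF KO livers at CT12 lay above those at CT0, as they did for 8.98% of genes, whereas library 10 of TRF WT at CT12 lay below the highest CT0 liver.

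Inhba rose at CT12 under TRF in both genotypes. The log2 difference was 1.85 ± 0.36 in TRF KO (adjusted p = 7.43e-04) and 1.89 ± 0.40 in TRF WT (adjusted p = 0.00202), and the WT call was lost when the compared groups were fitted alone (adjusted p = 0.118). It was the only called member of the 5 tested in TRF WT livers, where 23.1% of genes were called, and 1 of 2 in TRF KO livers, where 22% were. In AL livers the time difference was 0.17 ± 0.39 in KO (adjusted p = 0.997) and -0.65 ± 0.37 in WT (adjusted p = 0.327). The time difference under TRF exceeded that under AL by 2.54 ± 0.55 in WT (adjusted p = 0.00172) and by 1.68 ± 0.53 in KO (adjusted p = 0.0441); both terms were added after the data were seen, and the KO term was lost in 11 of the 14 fits without 1 library (adjusted p up to 0.117), and also when the 3-digit AL libraries were left out (0.210). Of all genes, 25% and 11.1% were called in these WT and KO terms.

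Averaged over genotype and time, Inhba was lower under TRF than under AL, by a log2 difference of -0.69 ± 0.19 (adjusted p = 0.0143, or 0.0819 without the 3-digit AL libraries). It was the only member called among the 5 tested, where 19.8% of genes were. That average holds for CT0 alone by group mean. At CT0, TRF KO and TRF WT livers averaged 4.71 and 5.98 CPM, against 10.4 and 30.6 CPM in AL KO and AL WT. At CT12 the TRF means were the higher ones, at 16.9 CPM in KO and 22.2 CPM in WT, against 11.7 and 19.5 CPM under AL. The KO minus WT difference under TRF was -0.37 ± 0.27 (95% interval -0.92 to 0.18, adjusted p = 0.399, and 0.0395 without library 10 of TRF WT CT12). Kupffer cell genes (Clec4f, Adgre1, Vsig4, Cd5l and Timd4) varied beside these values: they summed to 301 CPM in library 11 and 97.1 CPM in library 10 of TRF WT at CT12, the highest and lowest Inhba livers of that group. They summed to 59.8 CPM in library 28 and 103 to 260 CPM in the other 3 TRF KO livers at CT12, and library 28 was the lowest of that group for Inhba. At CT0 they summed to 61.7 to 157 CPM in TRF KO livers and 57.5 to 167 CPM in TRF WT livers. Some markers of other non-hepatocyte cells rose at CT12 in TRF WT livers. Of the tested markers there, 3 of 5 of liver endothelium, 3 of 5 of cholangiocytes, 2 of 5 of stellate cells, 2 of 5 of fibroblasts and 2 of 2 of smooth muscle were called higher and none lower. None of the 5 Kupffer cell, 4 lymphocyte and 4 mesothelium markers tested was called, and 23.1% of all genes were. The endothelial genes summed to 109 to 127 CPM at CT12 and 84.4 to 88.1 CPM at CT0 in TRF WT livers, and the fibroblast genes to 91.6 to 109 CPM at CT12 and 47.3 to 68.0 CPM at CT0, without overlap. In TRF KO livers the endothelial genes summed to 107 to 158 CPM at CT12 and 98.5 to 127 CPM at CT0, which overlapped, and the fibroblast genes to 103 to 123 CPM at CT12 and 78.3 to 99.2 CPM at CT0, which did not. In TRF KO, 2 of 5 endothelial, 1 of 5 Kupffer cell, 1 of 5 cholangiocyte and 1 of 5 fibroblast markers were called higher. None of the 5 stellate cell, 4 lymphocyte, 4 mesothelium and 2 smooth muscle markers tested was called there, where 22% of all genes were. The part of these cell types in the Inhba time difference was not tested. The genes most like Inhba over 26 livers were Myef2 (r = 0.895), Slc16a6 (0.871), a ketone body exporter of hepatocytes, and Ccnd2 (0.868), the cell cycle gene cyclin D2.

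**Figure D2:**
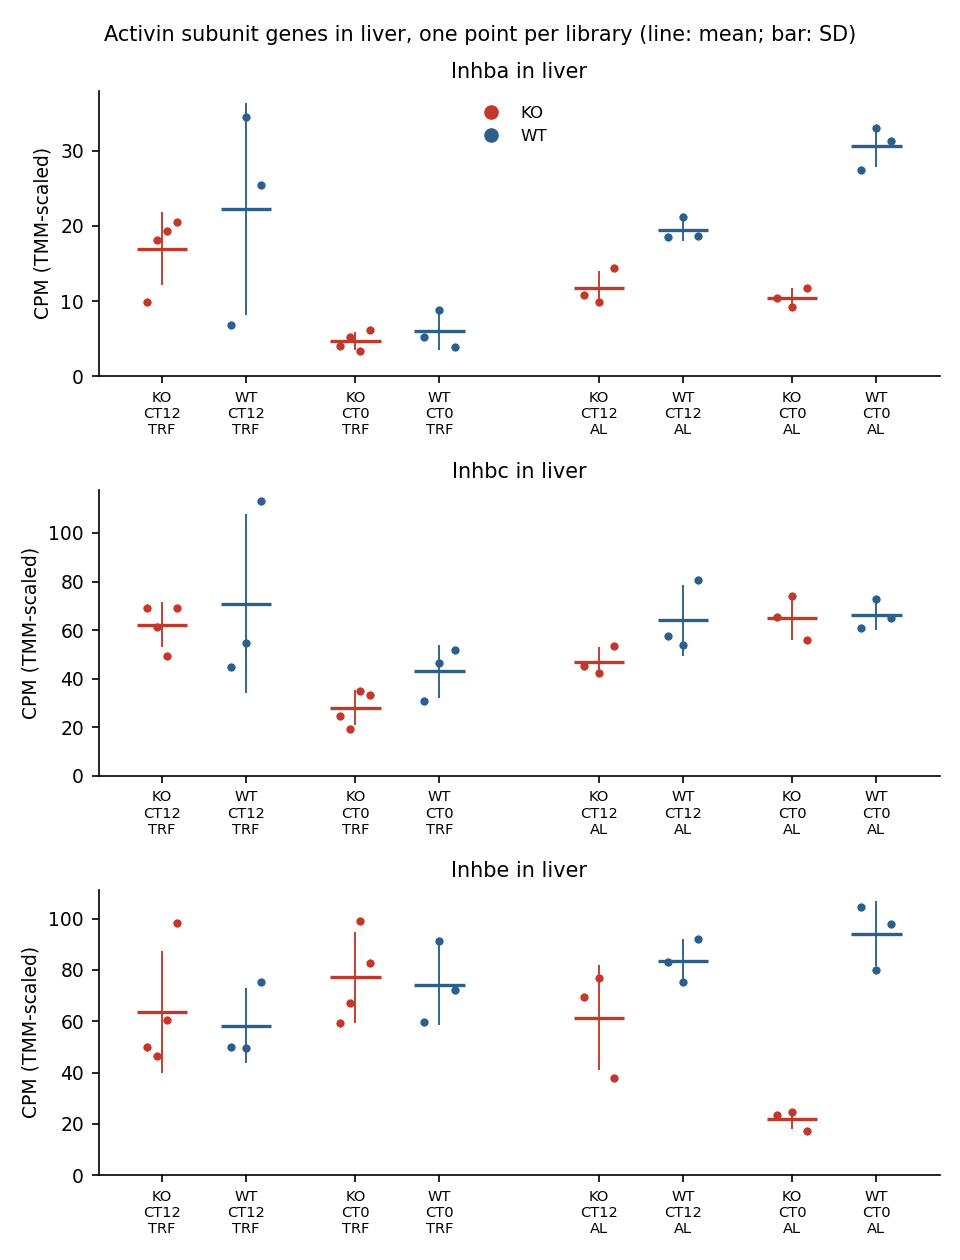
Inhba, Inhbc and Inhbe in every liver library, in TMM-scaled CPM, with KO in red left of WT in blue at each time, TRF groups on the left and AL groups on the right; lines are group means and bars SD. Inhba is high at CT12 under TRF and in AL WT livers, by group mean Inhbc is lowest in TRF KO livers at CT0 (19.5 to 34.8 CPM), and Inhbe is lowest in AL KO livers at CT0 (17.5 to 24.7 CPM).

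Inhbc and Inhbe encode the subunits of activins C and E and are neighbours on the minus strand of chromosome 10. Inhbe (ENSMUSG00000047492, GRCm38 chr10:127348857-127354411) ends 1910 bases from Inhbc (ENSMUSG00000025405, GRCm38 chr10:127356322-127370431). Their upstream sequence is shown because the neighbours had different patterns in the same livers. The Inhbe line is 30 bases at chr10:127352011-127352040 (minus strand, RefSeq, GRCm38.p6) with the C/EBP-ATF element TTGCATCA in capitals, first base 181 before the RefSeq start; only these bases are given, since GENCODE places exons of a longer Inhbe transcript over the whole window. The Inhbc line is the 250 bases before its RefSeq start, chr10:127370549-127370798 (minus strand).
Inhbe: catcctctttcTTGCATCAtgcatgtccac
Inhbc: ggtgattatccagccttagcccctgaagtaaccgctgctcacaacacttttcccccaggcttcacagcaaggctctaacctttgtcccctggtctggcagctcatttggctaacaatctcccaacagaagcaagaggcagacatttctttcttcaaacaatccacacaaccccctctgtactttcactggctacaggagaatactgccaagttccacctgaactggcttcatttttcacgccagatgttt
The element, bound by ATF4 with C/EBP proteins, occurred on either strand in 0.791% of 32851 such windows. The other motifs searched on both strands were the clock E-box CACGTG (6.02% of windows), the FoxO site TGTTTAC (3.17%) and AGGTCA (14%). Of the 5 members with a window (Fst had none in the table), Inhbe held only the element shown, Fstl3 only its half-site, and Inhba, Inhbb and Inhbc none of these letters.

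Inhbe was low in AL KO livers at CT0. It had 24.7, 17.5 and 23.5 CPM there, against 104.6, 80.1 and 97.8 CPM in AL WT livers at CT0. At CT12 it had 76.9, 38.1 and 69.4 CPM in AL KO livers, against 75.4, 92.2 and 83.1 CPM in AL WT livers. The genotypes did not overlap at CT0, where 15.9% of genes lay lower in KO without overlap, and overlapped at CT12, with a log2 difference over both times of -1.27 ± 0.20.

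The time difference of Inhbe in AL livers differed between genotypes. It was 1.49 ± 0.28 on the log2 scale in KO (adjusted p = 0.0995 in edgeR, 1.92e-04 in DESeq2) and -0.17 ± 0.27 in WT (adjusted p = 0.771), and the difference between them was 1.66 ± 0.39 (adjusted p = 0.0326). Inhbe was the only called member of 5 in that genotype by time term, where 1.56% of genes were called. The call was lost without the 3-digit AL libraries (1.59, adjusted p = 0.475), without the filter (0.108) and in 9 of 12 fits without 1 library (adjusted p 0.0096 to 0.103), with the log2 difference between 1.46 and 1.91 in those 12. In AL KO livers no member was called for time and 0.0139% of genes were.

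Under TRF Inhbe stayed within one range in all groups. It had 50.0, 46.3, 60.3 and 98.3 CPM in TRF KO livers at CT12 and 59.3, 67.2, 82.8 and 99.1 CPM at CT0; TRF WT livers had 50.0, 49.8 and 75.3 CPM at CT12 and 59.6, 91.1 and 72.1 CPM at CT0. All 4 groups overlapped. The KO minus WT log2 difference was 0.09 ± 0.18 (95% interval -0.29 to 0.47, adjusted p = 0.800). In KO livers the time difference under TRF was below that under AL by 1.76 ± 0.37 (log2 difference -1.76, adjusted p = 0.00319), and this call held in every fit without 1 library and when the 3-digit AL libraries were left out; the term was added after the data were seen. The genes most like Inhbe over 26 livers were Ciapin1 (r = 0.825), Tada2b (0.817) and Dicer1 (0.798), the miRNA-processing enzyme.

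Inhbc was higher at CT12 than at CT0 in TRF KO livers. It had 69.1, 61.3, 49.5 and 69.0 CPM in TRF KO livers at CT12, against 24.5, 19.5, 33.3 and 34.8 CPM at CT0, with no overlap. In TRF WT livers it had 44.7, 54.8 and 113 CPM at CT12, against 31.0, 46.3 and 52.0 CPM at CT0, which overlapped. The rise at CT12 was 1.15 ± 0.24 on the log2 scale in TRF KO (adjusted p = 0.00142); in TRF WT the difference was 0.72 ± 0.27 (adjusted p = 0.0627, and 0.0355 in DESeq2). These did not differ detectably between genotypes (genotype by time 0.44 ± 0.36, 95% interval -0.32 to 1.19, adjusted p = 0.755).

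In AL livers Inhbc had 42.1, 53.6 and 45.2 CPM in KO at CT12 and 73.9, 55.8 and 65.4 CPM in KO at CT0; AL WT livers had 54.0, 80.7 and 57.4 CPM at CT12 and 61.0, 72.9 and 64.8 CPM at CT0. The AL KO livers at CT12 lay below those at CT0, as they did for 9.93% of genes, but the time difference of -0.47 ± 0.27 did not pass (adjusted p = 0.943). The AL KO and AL WT livers overlapped, and the KO minus WT log2 difference of -0.24 ± 0.19 under AL is given without a test. In KO livers the time difference under TRF exceeded that under AL by 1.62 ± 0.36 (adjusted p = 0.00536, or 0.0620 when the 3-digit AL libraries were left out). The KO minus WT difference under TRF was -0.41 ± 0.18 (95% interval -0.78 to -0.03, adjusted p = 0.154, and 0.0482 without library 10 of TRF WT CT12). None of the 5 tested members was called in that comparison by edgeR or DESeq2, 1 had an unadjusted p below 0.05, and 10.4% of genes were called. The genes most like Inhbc were Clcn5 (r = 0.891), an endosomal chloride and proton exchanger, Vcp-rs (0.882) and Psmc4 (0.864), a proteasome subunit.

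**Figure D3:**
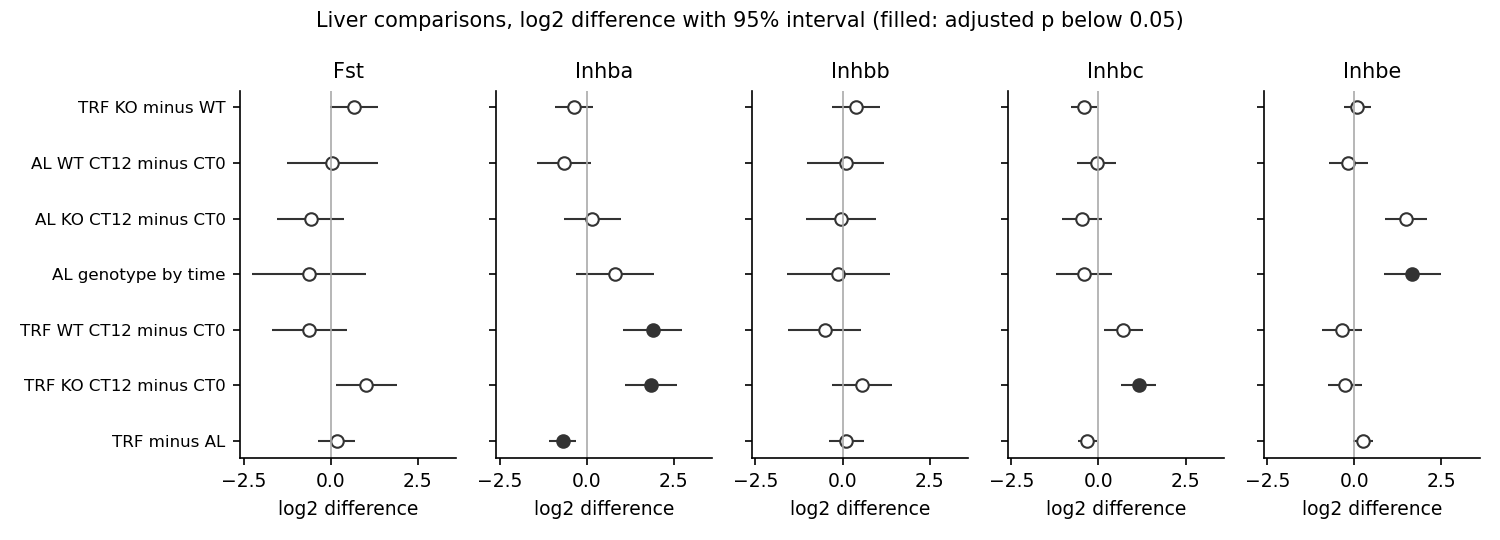
Log2 differences of the 5 members tested in liver, with 95% intervals, for 7 comparisons other than KO minus WT under AL; filled points have an adjusted p below 0.05. Inhba is called at CT12 under TRF in both genotypes and between feedings, Inhbc at CT12 in TRF KO, Inhbe in the AL genotype by time term, and Fst and Inhbb in none of the 7.

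Across the 26 livers the members did not move as one. On log2 CPM, Pearson's r was -0.75 between Fst and Inhbe, 0.70 between Inhba and Inhbc, 0.60 between Fst and Inhbb, and -0.10 between the neighbours Inhbc and Inhbe; the points share libraries, depth and groups.

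Inhbb, the subunit of activin B, was a minor liver gene and the leading member in heart. Inhbb (ENSMUSG00000037035, GRCm38 chr1:119415465-119422248, minus strand) had 0.395 to 3.46 CPM in livers and passed no liver test. Its KO minus WT log2 difference under TRF was 0.39 ± 0.33 (95% interval -0.29 to 1.07, adjusted p = 0.483), and under AL 0.69 ± 0.36, given without a test. The genes most like it over 26 livers were Rgs1 (r = 0.776), Tgtp1 (0.763) and H2-Eb1 (0.733), which are genes of immune cells.

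In TRF WT hearts Inhbb fell at CT12. It had 3.39, 3.96 and 3.42 CPM in TRF WT hearts at CT12, against 7.16, 6.56 and 7.83 CPM at CT0. The 3 hearts at CT12 lay below the 3 at CT0, a log2 difference of -0.999 ± 0.20 (adjusted p = 0.00467), which held in each fit without 1 library (adjusted p 0.0079 to 0.0307). It was the only called member of 4 tested there, where 4.37% of genes were called and 13.7% lay lower without overlap. The TRF WT hearts at CT0 held 186 to 239 CPM of the hepatocyte genes, against 2.07 to 5.20 CPM at CT12, so this trace followed the groups compared. Inhbb averaged 1.55 ± 0.732 CPM in livers themselves (n = 26). The part of the liver trace, or of anything that goes with it, in the Inhbb time difference was not tested.

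In TRF KO hearts Inhbb had 4.31, 5.14, 4.87 and 4.19 CPM at CT12, against 3.59, 3.67, 4.47 and 4.42 CPM at CT0. These overlapped, with a log2 difference of 0.19 ± 0.17 (95% interval -0.16 to 0.55, adjusted p = 0.666), and none of the 4 tested members was called there by edgeR or DESeq2, none had an unadjusted p below 0.05, and 3.22% of genes were called. The genotype by time term, added after the data were seen, was 1.19 ± 0.26 (adjusted p = 0.374 in edgeR, 0.0215 in DESeq2). In edgeR none of 16397 genes was called in that term (0%), and 2 of the 4 tested members had an unadjusted p below 0.05.

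At CT0 the TRF KO hearts lay below all TRF WT hearts, as they did for 7.25% of genes. The same order held in AL hearts at CT0, with 3.67, 3.82 and 4.81 CPM in KO, against 5.36, 6.75 and 5.46 CPM in WT, and 12.5% of genes lay lower in KO without overlap there. That AL difference was -0.51 ± 0.19 on the log2 scale (95% interval -0.91 to -0.11, adjusted p = 0.262). None of the 4 tested members was called in it by edgeR or DESeq2, 1 had an unadjusted p below 0.05, and 1.46% of genes were called. The AL KO hearts at CT0 held 1243 to 3198 CPM of the atrial genes, against 15.3 to 22.0 CPM in the AL WT hearts. TRF hearts at CT0 held 23.5 to 47.8 CPM of them in KO and 18.8 to 30.0 CPM in WT. The part of atrial tissue in the AL difference of Inhbb was not tested. Averaged over both times, the TRF KO minus WT difference was -0.23 ± 0.13 (adjusted p = 0.359). No member was called in that comparison by either tool or had an unadjusted p below 0.05, and 2.76% of genes were called. Between TRF WT and AL WT hearts at CT0 the difference was 0.29 ± 0.19 (95% interval -0.10 to 0.69, adjusted p = 0.469), again with no member called or with an unadjusted p below 0.05, where 2.91% of genes were called. Over 26 hearts the genes most like Inhbb were Cad (r = 0.818), the enzyme that starts pyrimidine synthesis, Prr29 (0.807) and Fbn1 (0.767), the microfibril protein fibrillin that binds TGF-beta family complexes. For Fstl3 they were Pkn3 (0.820), Tgfb1i1 (0.817) and Rasgrp4 (0.794).

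**Figure D4:**
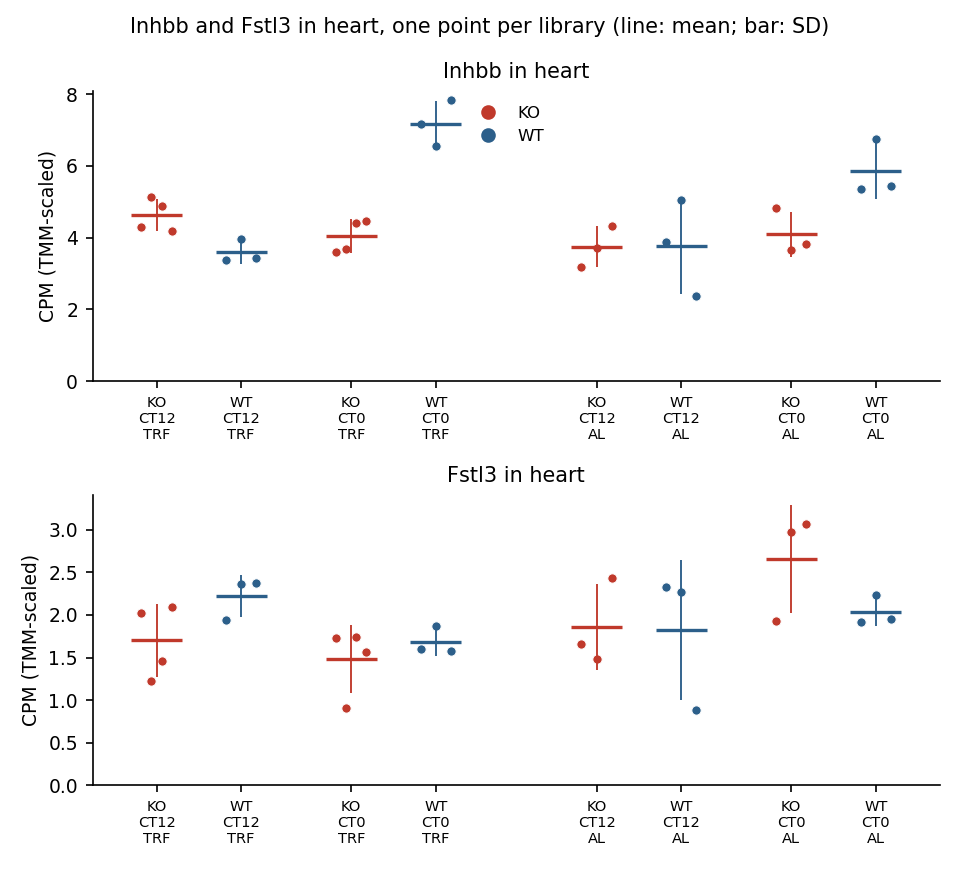
Inhbb and Fstl3 in every heart library, in TMM-scaled CPM, with KO in red left of WT in blue at each time, TRF groups on the left and AL groups on the right; lines are group means and bars SD. Inhbb is high in WT hearts at CT0 under both feedings (5.36 to 7.83 CPM) and between 3.39 and 5.14 CPM in the other TRF hearts.

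Fst and Inhba were scarce in heart, at 0 to 1.13 CPM and 0.255 to 1.45 CPM. Fst had 0.653, 0.701, 1.04 and 0.359 CPM in TRF KO hearts at CT12 and 0, 0.580, 0.615 and 0.622 CPM at CT0; TRF WT hearts had 0.277, 0.319 and 0.461 CPM at CT12 and 0.736, 0.870 and 0.987 CPM at CT0. The TRF WT hearts at CT12 lay below those at CT0, with a log2 difference of -1.28 ± 0.55 (adjusted p = 0.205), on 4 to 15 counts per library. Heart Inhba passed no test, and its KO minus WT difference under TRF was -0.04 ± 0.25 (95% interval -0.55 to 0.48, adjusted p = 0.982).

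Among 9 receptor and co-receptor genes, 7 were tested in liver, and Acvr2b, a type II activin receptor, was lower at CT12 under TRF, where Inhba was higher. Acvr2b averaged 5.47 ± 1.21 CPM in TRF KO livers at CT12 and 19.3 ± 5.91 CPM at CT0 (n = 4 each). TRF WT livers averaged 5.21 ± 0.695 CPM at CT12 and 15.0 ± 1.48 CPM at CT0 (n = 3 each). It fell by 1.82 ± 0.21 on the log2 scale in TRF KO (adjusted p = 7.34e-07) and by 1.53 ± 0.24 in TRF WT (adjusted p = 6.39e-05). In AL livers it averaged 5.66 ± 0.723 CPM in KO at CT12 and 5.82 ± 1.17 CPM in KO at CT0, and 8.23 ± 1.92 CPM in WT at CT12 and 4.47 ± 0.947 CPM in WT at CT0. In AL WT livers Acvr2b was thus called in the opposite direction, higher at CT12 by 0.88 ± 0.25 (adjusted p = 0.0240), a call lost when the 3-digit AL libraries were left out (0.168) and in fits without that library of CT0 (0.135) or library 48 of CT12 (0.117). Tgfbr3, the co-receptor betaglycan, was also higher at CT12 there (0.76 ± 0.19, adjusted p = 0.00959, or 0.214 when the 3-digit AL libraries were left out), so that 2 of 7 receptors rose and none fell in AL WT, where 8.99% of genes were called. Acvr1b, the activin type I receptor, also fell at CT12 in TRF WT livers (log2 difference -0.58 ± 0.14, adjusted p = 0.00329). In all, 3 of 7 receptors fell and none rose in TRF KO (22% of all genes called), and 2 of 7 fell and none rose in TRF WT (23.1% called, a share close to that of the receptors), with list medians of 0.03 and -0.27 against 0.03 and 0.02 over all genes. Acvr2a, the other type II receptor, averaged 12.9 ± 2.15 CPM at CT12 and 11.6 ± 1.43 CPM at CT0 in TRF KO livers and was not called.

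Some genes known to respond to Smad signalling rose at CT12 under TRF. Of 8 tested in liver, 3 rose and none fell in TRF KO, where 22% of all genes were called, and 4 rose and none fell in TRF WT, where 23.1% were; the list medians were 0.72 and 0.93, against 0.03 and 0.02 over all genes. Some of the non-hepatocyte markers given beside Inhba moved in the same livers, and their part in these changes was not tested. Skil, a Smad corepressor, averaged 19.2 ± 4.55 CPM at CT12 and 6.08 ± 1.22 CPM at CT0 in TRF KO livers, a log2 difference of 1.65 ± 0.17 (adjusted p = 1.33e-07). In TRF WT livers Skil averaged 15.6 ± 1.73 CPM at CT12 and 7.96 ± 0.953 CPM at CT0 (0.97 ± 0.19, adjusted p = 6.06e-04). Id2, an inhibitor of DNA binding induced by BMP signals, rose by 0.90 in both genotypes (SE 0.19 in KO, adjusted p = 0.00116; SE 0.22 in WT, adjusted p = 0.00444, and 0.0525 without library 12 of TRF WT CT12). None of the 8 was called for time in AL KO or AL WT livers.

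Few of the other ligands and Smads were called in any one comparison. Of 8 other ligand genes, 5 were tested; Gdf2, the hepatic ligand BMP9, averaged 15.4 ± 0.972 CPM at CT12 and 8.86 ± 1.58 CPM at CT0 in TRF WT livers and rose (0.79 ± 0.17, adjusted p = 0.00152). It also rose at CT12 in TRF KO livers (0.44 ± 0.14, adjusted p = 0.0267). Its genotype by time term under AL was -0.97 ± 0.23 (adjusted p = 0.0330). Gdf2 was also higher in KO than in WT livers under TRF (0.44 ± 0.11, adjusted p = 0.0137). In each of these comparisons it was the 1 gene called of those 5. Of all genes, 23.1% were called for time in TRF WT and 22% in TRF KO. The AL genotype by time term called 1.56% and TRF KO minus WT 10.4%. Of 7 Smads, Smad1 was the only one to rise in TRF KO at CT12 (0.39 ± 0.13, adjusted p = 0.0391). That call was lost with no filter on low counts (0.0717). Only Smad4 fell in TRF WT (-0.33 ± 0.10, adjusted p = 0.0222, and 0.0741 with no filter). Smad1 was higher in KO than in WT livers under AL (0.56 ± 0.11, adjusted p = 8.75e-04) and under TRF (0.32 ± 0.10, adjusted p = 0.0473). Smad3 was also higher in KO under AL (0.37 ± 0.11, adjusted p = 0.0149), where 20.5% of all genes were called. Whether the Gdf2 calls and these KO minus WT calls held under the alternatives is not reported here.

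Among 11 insulin and FoxO1 genes of liver, 4 fell at CT12 in TRF KO and 4 fell in TRF WT; those that rose are not described. Foxo3, a FoxO transcription factor, fell at CT12 by 0.89 ± 0.13 in TRF KO (adjusted p = 1.91e-05) and by 0.67 ± 0.15 in TRF WT (adjusted p = 0.00206). In AL WT livers 4 of the 11 rose at CT12, Foxo3 by 1.12 ± 0.15 (adjusted p = 1.96e-05) and Foxo1 by 1.03 ± 0.17 (adjusted p = 2.17e-04), while no member of the follistatin and activin group was called by edgeR or DESeq2, none had an unadjusted p below 0.05, and 8.99% of genes were called.

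In the SCN, described by levels alone, Inhbb ran from 7.24 to 14.7 CPM over 24 libraries with a median of 8.80 CPM, Fstl3 from 0.910 to 2.51 CPM, Inhba from 0.762 to 3.92 CPM and Fst from 0.171 to 1.44 CPM. Inhbc and Inhbe were at 0 in 11 of the 24 libraries each.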

How the data were processed

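RNA from mouse liver, heart and SCN was extracted with TRIzol and 1.3 ug per library was prepared with the NEBNext Ultra II kit, per the labels' protocols. The submitters' processing notes name FastQC 0.11.8, STAR and the builds mm10 and GRCm38; the counter, its strand setting and the annotation are not given in the sources used here. The authors deposited raw counts per gene as whole numbers for 76 libraries, which were read by title number and tissue suffix. Of 38129 entries, 38038 (99.8%) matched GENCODE vM21 by Ensembl identifier. Because no strand setting is named, a gene cannot be told apart from an opposite-strand neighbour: GENCODE gives Gm47040 opposite Fst, Gm47200 opposite Inhbc and Inhbe, Prss57 opposite Fstl3, and B230303A05Rik and Gm48444 opposite Inhba. Prss57 had at most 0.301 CPM in hearts and 0.894 CPM in the SCN. B230303A05Rik had at most 0.133 CPM in livers and 0.812 CPM in hearts, and 3.28 to 5.19 CPM in the SCN. Inhba itself had 0.255 to 1.45 CPM in hearts and 0.762 to 3.92 CPM in the SCN, so its levels there cannot be told apart from this neighbour. The other 3 had no entry in the raw counts.

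The members and all gene lists were chosen with earlier results of these data known. In each tissue, genes passing edgeR's filterByExpr (14397 in liver, 16397 in heart) were fitted with a group-means model of the 8 groups, TMM factors and robust quasi-likelihood dispersions (edgeR 4.0.16, R 4.3.3). P values were adjusted by Benjamini and Hochberg over all genes tested, and a gene was called below 0.05. CPM use the TMM factors, values are mean ± SD, and SE is the absolute log2 difference over the square root of F. Named genes were all members, up to 3 called genes with the smallest adjusted p per list and comparison and 1 uncalled gene of high level, and the 5 (Fst in liver) or 3 genes of at least 1 CPM with the highest Pearson's r on log2 of CPM plus 0.5; they are given in part, and some are not reported here. The TRF genotype by time terms (liver and heart) and the liver feeding by time terms were added after the data were seen. Alternatives were RLE factors, no filter, DESeq2 1.42.0, the compared groups alone, fits without the 3-digit AL libraries or without TRF KO libraries 55 and 64, and leaving out each library. Where a group is left with 2 libraries, the spread is pooled over groups. Intervals are 95%; the floor is 3 counts. On simulated counts, 2-fold changes were recovered in 91% of 100 genes for liver TRF KO minus WT. The share was 76% for heart TRF WT time and 37% for the liver AL genotype by time term. Genes were drawn independently, and the changed genes had a mean above 1 CPM. Heart Fst and Inhba, at means of 0.651 and 0.674 CPM, lay below that, so the heart share does not apply to them.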

Additional observations from a re-analysis of the deposited data

Results flagged for a closer look

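Over the TRF KO groups of 4 livers or 4 hearts, 22 sets of a member's values in a group were examined. Of these, 2 held a library far from the other 3. Chance gives about 1 in 20 for continuous values, a rate that does not hold for sets of very low counts. Fst in TRF KO hearts at CT0 was 0 CPM in library 20, against 0.580 to 0.622 CPM in the other 3 (gap over range 0.932); 0 counts there allow up to 3 counts. Inhbc in the same group was 0.0642 CPM in library 20, which is 1 count, and 0 in the other 3 (gap over range 1). With 0 in the other 3, any count in library 20 gives this ratio, so no outlier is read from it. That heart held 193 CPM of the hepatocyte genes.

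Differences between groups in a time difference passed the test 5 times, on the log2 scale. All were in liver, where more such terms were tested, each on 5 members; the single heart term was tested on 4. Of all genes, 1.56% were called in the AL genotype by time term. The WT and KO feeding by time terms called 25% and 11.1%. The TRF genotype by time terms called no member, and 0.0556% of genes in liver and 0% in heart. For Inhbe under AL the time difference in KO exceeded that in WT by 1.66. For Inhba the time difference under TRF exceeded that under AL by 2.54 in WT and by 1.68 in KO. In KO livers the time difference under TRF exceeded that under AL by 1.62 for Inhbc, and for Inhbe the term was -1.76. The feeding terms were added after the data were seen. The errors, adjusted p-values and the fits that lose them stand with each gene.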

How the results depend on the processing

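No member changed direction in a called comparison under the alternatives run. Over the comparisons and settings other than leaving out a library, 428 member values stayed, 8 lost a call, 5 gained one and 2 moved. A called value stayed if it was still called. A value uncalled in both fits, or given without a test, stayed if it shifted by less than its SE, and otherwise moved. Without 1 library, 830 stayed, 20 lost and 9 gained a call and 7 moved. The counts of all called genes moved more; the causes were not tested, beyond fewer samples where libraries are left out. Without the 3-digit AL libraries, the liver counts, each against the count with all libraries, were 1134 against 2954 for AL KO minus WT, 820 against 1494 for TRF KO minus WT, 26 against 225 for AL genotype by time, 357 against 1294 for AL WT time, 0 against 2 for AL KO time and 835 against 2853 for TRF minus AL, and the heart counts 63 against 240 for AL KO minus WT at CT0, 185 against 453 for TRF KO minus WT, 399 against 717 for TRF WT time, 245 against 528 for TRF KO time and 75 against 477 for WT TRF minus AL. With the compared groups alone, the counts were 588 for liver TRF KO minus WT, 562 for AL genotype by time, 253 for AL KO time, 1623 against 3323 for TRF WT time and 1934 against 3167 for TRF KO time, and in heart 1065 for AL at CT0, 1129 for TRF KO minus WT, 1278 for TRF WT time and 2163 for WT TRF minus AL. With no filter they were 992 for liver TRF KO minus WT, 5 for AL KO time, and in heart 241 for TRF KO minus WT, 434 for TRF WT time and 329 for TRF KO time. DESeq2 gave 339 for liver AL genotype by time, 31 for AL KO time, and in heart 393 for AL at CT0, 842 for TRF KO minus WT, 812 for TRF KO time and 737 for WT TRF minus AL. Without TRF KO libraries 55 and 64, TRF KO time gave 1973 in liver and 113 in heart.

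Leaving out 1 library gave 2228 to 2774 for liver AL KO minus WT, 701 to 1736 for TRF KO minus WT, 134 to 209 for AL genotype by time, 740 to 1305 for AL WT time, 0 to 10 for AL KO time, 2083 to 3327 for TRF WT time, 2494 to 3216 for TRF KO time and 2207 to 3425 for TRF minus AL. In heart it gave 92 to 195 for AL at CT0, 137 to 524 for TRF KO minus WT, 248 to 767 for TRF WT time, 247 to 540 for TRF KO time and 145 to 284 for WT TRF minus AL. Of the terms added after the data were seen, it gave 0 to 64 against 8 for liver TRF genotype by time, 2880 to 3841 against 3602 for WT and 1046 to 1771 against 1604 for KO feeding by time, and 0 to 25 against 0 for heart TRF genotype by time. Inhba gained a call with the compared groups alone in the AL genotype by time term (0.81, adjusted p = 0.0334) and in AL WT time (-0.64, adjusted p = 0.0122), both from edgeR. No paired analysis was possible because the groups compared within a tissue share no title numbers. Heart Fst and Inhba rest on at most 19 and 28 counts per library, and small differences there were not detectable at this depth.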
